A study of Homo sapiens with 24 samples.

Results

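A set of 9 genes of the Polycomb repressive system were followed in this series: 7 of Polycomb repressive complex 2 (PRC2), EZH1, EZH2, SUZ12, EED, JARID2, PHF19 and MTF2, and the H3K27 demethylases KDM6A and KDM6B. They were taken by symbol from the deposited table, which gave 9 of its 58381 gene IDs, and 9 of 9 were among the 14228 genes tested. The set was selected on results of these libraries, chosen by the FPKM of KDM6A among others: KDM6A differed between weeks in its response to arsenic in vector clones. That result is described here without a test, and which other values were known when the set was chosen is not recorded. EZH1 was the one member called in all 4 matched comparisons of the constructs: on the FPKM + 0.5 scale it was 2.32 to 3.06 times as high in miR-186 clones as in vector clones, while its paralogue EZH2 passed the test in 0 of the 4. KDM6A, by contrast, was lowest in vector clones without arsenic at week 29, and KDM6B had the widest relative spread of the 9 members within groups.

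The cells were HaCaT, immortal human skin keratinocytes that are not malignant. According to the labels, 3 clonal lines transduced with hsa-miR-186 and 3 transduced with the empty vector were each kept in 100 nM or 0 nM inorganic arsenic (iAs), and RNA was taken at weeks 12 and 29 from passage-matched cultures. This gives 8 groups of 3 libraries: miR-186 clones at 100 nM and at 0 nM, and vector clones at 100 nM and at 0 nM, at each week. Every library thus comes from a clone selected after transduction, the promoter driving miR-186 is not given in the sources used here, and the labels call the 3 samples of a group independent biological triplicates without tying a replicate number to a clone. MIR186 was listed at 0 FPKM in 24 of 24 libraries, which were made from poly(A) RNA, so the overexpression itself was not measured.

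PRC2 places methyl groups on lysine 27 of histone H3, a mark of repressed genes, through either EZH1 or EZH2, which need EED and SUZ12 as partners. EZH2 is the form that dominates in dividing cells, and EZH1 is known for being retained in cells that have left the cell cycle, hair follicle and epidermal cells among them. Accessory proteins steer the complex to its sites, and KDM6A (UTX) and KDM6B (JMJD3) remove the methyl groups. In epidermis, PRC2 is known to hold back terminal differentiation genes in basal progenitors, and KDM6B to open them.

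Values are FPKM (fragments per length of transcript and per depth of library), which can be compared between genes because they are per length. Changes are given as differences of log2(FPKM + 0.5) with their standard error, which understates low genes, and come from limma with Benjamini-Hochberg adjustment over all 14228 genes, and a gene was called at an adjusted p under 0.05. Relative depth, estimated from the steps of the FPKM values, ran from 0.825 to 1.08, and absolute depth is unknown. Keratinocyte markers were present in every library, with KRT5 at 359 FPKM or more and TP63 at 49.2 FPKM or more, and TYR of melanocytes was at 0 in 24 libraries and PTPRC of leukocytes at 0.208 FPKM or less. Of the fibroblast markers, COL1A2 was at 0 in 21 libraries, while DCN reached 78.0 FPKM and LUM 17.2 FPKM. The endothelial gene CDH5 was between 3.67 and 20.7 FPKM, while PECAM1 was at 0.0995 FPKM or less and VWF at 0.933 FPKM or less. Beside TYR, the melanocyte gene PMEL was between 0.708 and 2.31 FPKM, MLANA at 0.322 FPKM or less and DCT at 0.0559 FPKM or less. In bulk RNA, fewer cells of a type and less RNA per cell cannot be told apart.

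**Figure D1:**
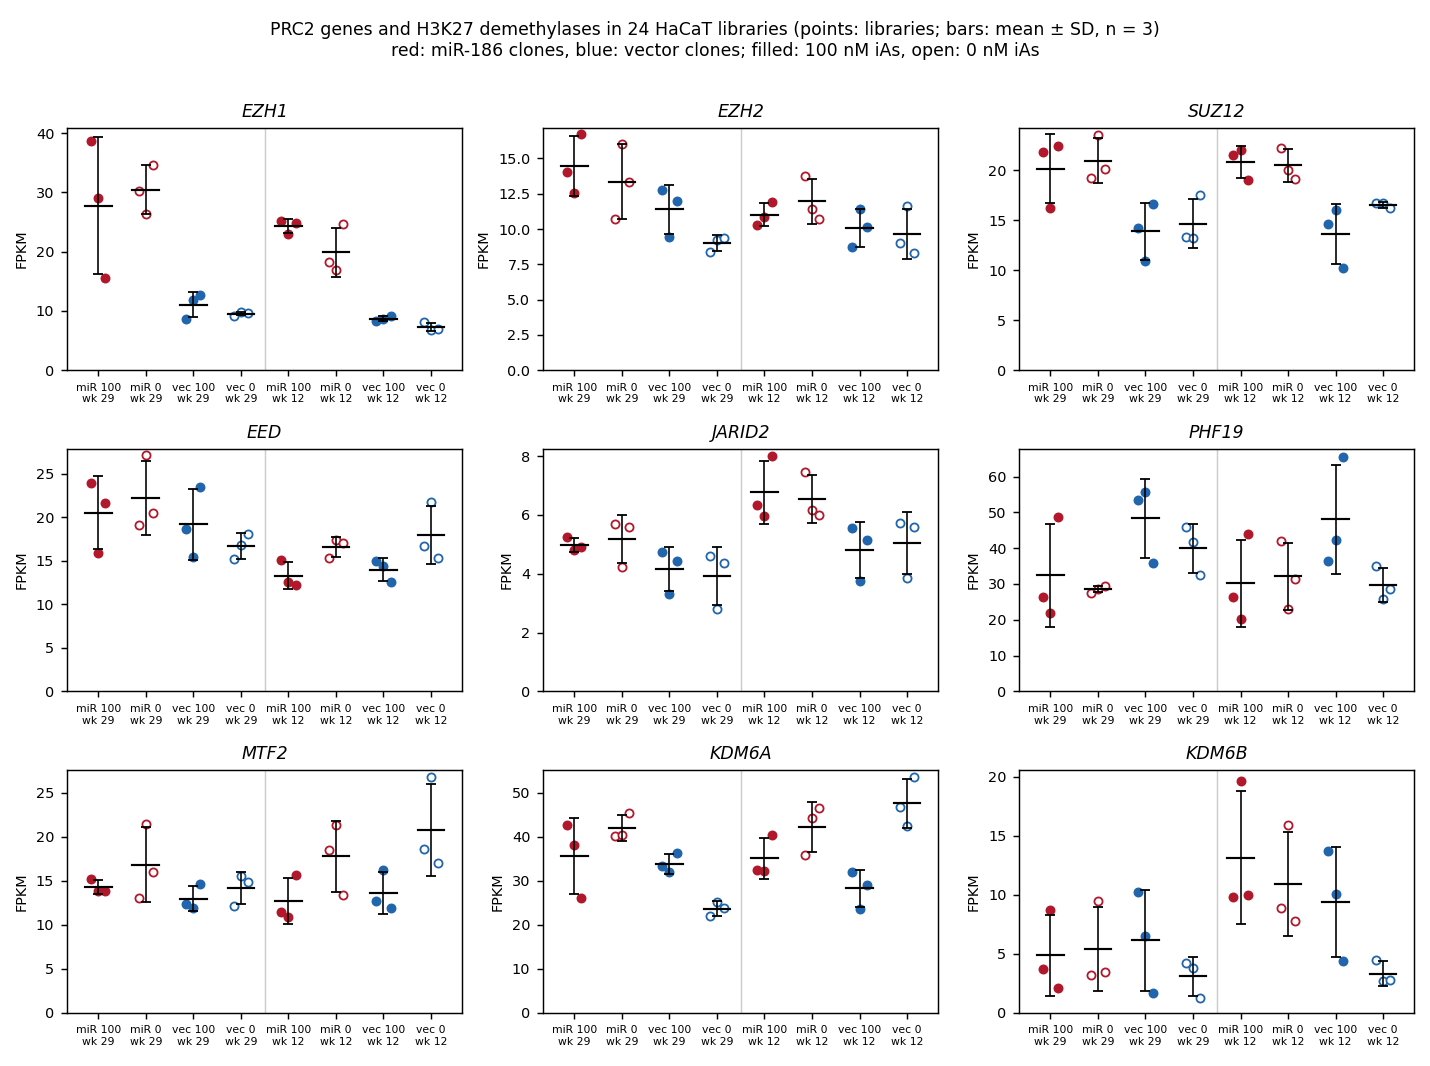
FPKM of the 9 genes in each of 24 libraries (points), with the mean and SD of each group of 3 (black bars). Red points are miR-186 clones and blue points vector clones, filled points 100 nM iAs and open points 0 nM, and week 29 is left of week 12. EZH1 is at 15.6 FPKM or more in every miR-186 library and at 12.6 FPKM or less in every vector library.

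Of the 2 catalytic subunits, EZH1 was called between the constructs and EZH2 was not. EZH1 (ENSG00000108799, chromosome 17, 42700275 to 42745049, minus strand, GRCh38), the less active methyltransferase of the pair, had, at 100 nM and week 12, 25.1, 23.0 and 24.9 FPKM in miR-186 clones, against 8.35, 8.57 and 9.10 FPKM in vector clones. Without arsenic at week 12 it had 18.2, 16.9 and 24.6 FPKM in miR-186 clones, against 8.08, 6.83 and 6.87 FPKM in vector clones. The groups did not overlap in either setting, and the arsenic-treated miR-186 libraries had an SD of 1.17 FPKM. At week 29 without arsenic EZH1 had 30.3, 26.4 and 34.7 FPKM in miR-186 clones, against 9.20, 9.74 and 9.71 FPKM in vector clones. At week 29 with arsenic it had 38.6, 29.0 and 15.6 FPKM in miR-186 clones, against 8.68, 11.8 and 12.6 FPKM in vector clones. Every miR-186 library was above every vector library, and miR-186 replicate 3 at 100 nM and week 29, at 15.6 FPKM, was the lowest of the 12.

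EZH1 was called higher in miR-186 clones in 4 of 4 comparisons with limma. The log2 change was 1.38 ± 0.23 at 0 nM and week 12 (adjusted p = 0.0018) and 1.44 ± 0.23 at 100 nM and week 12 (adjusted p = 0.00149). At week 29 it was 1.61 ± 0.23 at 0 nM (adjusted p = 0.000466) and 1.21 ± 0.23 at 100 nM (adjusted p = 0.0107). The call at 100 nM and week 29 was lost without miR-186 replicate 1 (0.93, adjusted p = 0.0766), without miR-186 replicate 2 (1.14, adjusted p = 0.0568), without vector replicate 1 (1.06, adjusted p = 0.0839), and in a fit of these 6 libraries alone (adjusted p = 0.3). Without miR-186 replicate 3, the low library, the change there was 1.57. The other 3 comparisons kept the call without any one library.

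EZH1 was the 1 member called of the 8 tested in each of the 4 comparisons; KDM6A is left out of every count that uses vector libraries, since its values there chose it. Over all genes tested, limma called 3.44% at 0 nM and week 12, 2.02% at 100 nM and week 12, 2.86% at 0 nM and week 29 and 0.864% at 100 nM and week 29. In the higher direction alone these shares were 1.43%, 0.921%, 1.76% and 0.457%.

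**Figure D2:**
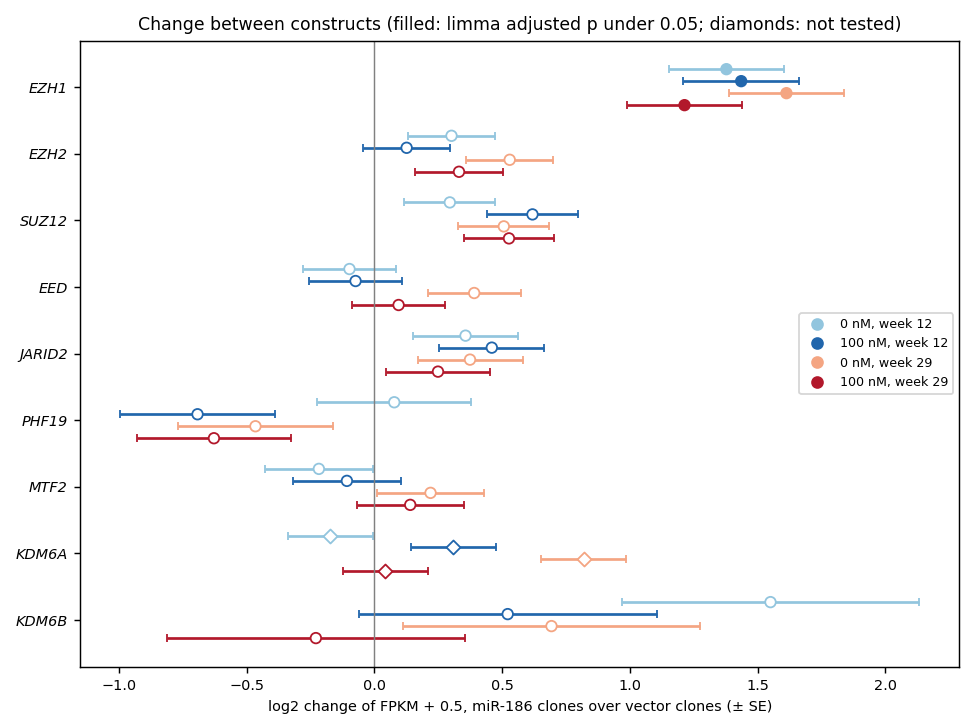
Log2 change of FPKM + 0.5 between miR-186 clones and vector clones (x axis, points, with bars of 1 standard error) for each of the 9 genes (y axis) at each dose and week. Filled points passed limma's adjusted p of 0.05: EZH1 in 4 of 4 settings, from 1.21 to 1.61. Diamonds are KDM6A, which was not tested here and was highest at 0 nM and week 29, at 0.82.

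EZH2 (ENSG00000106462, chromosome 7, 148807383 to 148884321, minus strand), the main H3K27 methyltransferase of cycling cells, stayed between 8.31 and 16.7 FPKM in all 24 libraries. At 0 nM and week 29, where it differed most, it had 10.7, 16.02 and 13.3 FPKM in miR-186 clones, against 8.34, 9.25 and 9.39 FPKM in vector clones, without overlap. That log2 change was 0.53 ± 0.17 and missed the threshold (limma adjusted p = 0.0954), and the other 3 changes between constructs were 0.13 to 0.33. Of the 20 proliferation genes listed beside it, MKI67 and the replication genes MCM2 to MCM7 among them, 0 were called in the 4 comparisons between constructs, with median log2 changes of 0.11 and -0.49 at 0 and 100 nM in week 12 and of -0.50 and -0.79 at 0 and 100 nM in week 29. The median of all genes lay between -0.04 and 0.02. The EZH2 to EZH1 ratio per library, which does not depend on library scaling, was 0.354 to 1.07 in miR-186 clones (median 0.453, n = 12) and 0.797 to 1.71 in vector clones (median 1.08, n = 12). A single miR-186 library, replicate 3 at 100 nM and week 29 with 1.07, reached the vector range.

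The promoters of the pair are shown because EZH1 RNA was called between the constructs and that of its paralogue EZH2 was not. They are RefSeq sequences of GRCh38.p14, from 250 bases before to 50 bases after the gene's start, read 5' to 3' on the gene's strand: EZH1 at chr17:42744991-42745290 (minus strand) and EZH2 at chr7:148884242-148884541 (minus strand). Capitals mark, on either strand, TTTNNCGC (letters that include the E2F site), CCAAT (the NF-Y box) and GGGCGG (the GC box bound by SP1).
EZH1: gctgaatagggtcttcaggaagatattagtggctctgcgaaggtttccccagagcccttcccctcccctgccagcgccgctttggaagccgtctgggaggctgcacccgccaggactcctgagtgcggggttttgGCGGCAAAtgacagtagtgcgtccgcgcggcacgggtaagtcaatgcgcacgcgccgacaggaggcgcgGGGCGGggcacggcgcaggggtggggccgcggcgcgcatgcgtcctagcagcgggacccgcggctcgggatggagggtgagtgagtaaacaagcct
EZH2: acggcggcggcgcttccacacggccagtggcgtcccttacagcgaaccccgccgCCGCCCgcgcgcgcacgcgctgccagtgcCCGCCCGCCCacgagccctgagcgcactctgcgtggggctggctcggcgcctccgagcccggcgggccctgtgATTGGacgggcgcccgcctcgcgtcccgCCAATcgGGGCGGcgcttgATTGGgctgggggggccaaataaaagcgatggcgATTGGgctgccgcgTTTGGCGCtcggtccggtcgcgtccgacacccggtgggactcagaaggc
TTTNNCGC occurred 1 time in EZH1 and 1 time in EZH2, and 6.89% of 35116 promoters of this length hold it. CCAAT occurred 0 times in EZH1 and 4 times in EZH2 (34.61% of promoters hold it), and GGGCGG 1 time in EZH1 and 4 times in EZH2, where neighbouring matches overlap (44.95%). A match is only a match of letters in this window, and binding was not measured.

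Genes along a stretch of chromosome 17 were higher in miR-186 clones together with EZH1. Within 5 Mb of its start, 178 other genes were tested. In that window 43 genes (24.2%) were called higher in miR-186 clones at week 12 and 0 nM, 31 (17.4%) at 100 nM and week 12, 24 (13.5%) at 0 nM and week 29 and 11 (6.18%) at 100 nM and week 29. Their median log2 changes were 0.55, 0.32, 0.28 and 0.18 in the same order. EZH1 was above most of them: 11, 5, 0 and 1 of the 178 genes had a larger change.

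The higher genes lay on one side of EZH1. Averaged over the 4 comparisons, the median change was 0.65 among 98 genes on the 5 Mb of lower coordinates, where 46 were called higher in at least 1 comparison and 10 in all 4. It was 0.03 among 80 genes on the 5 Mb of higher coordinates, where 2 were called higher in at least 1 comparison and 0 in all 4. Over all genes tested, 3.02% were called higher in at least 1 of the 4. The stretch from 4 to 2 Mb on the lower side had the highest median, 0.87 over 40 genes, and held 9 of those called in all 4. In the 2 Mb next to EZH1 on that side the median was 0.51 over 46 genes, with 14 called in at least 1 comparison and 1 in all 4. The genes with the nearest starts, CNTNAP1 on the lower and VPS25 on the higher side, averaged -0.11 and -0.28. EZH1 itself averaged 1.41, and 1 gene of the 98 was above it. Of the 32 genes called higher in all 4 comparisons across the genome, 16 were on chromosome 17 and 12, EZH1 included, within 10 Mb of EZH1. Gene copy number in the clones was not analysed here.

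**Figure D3:**
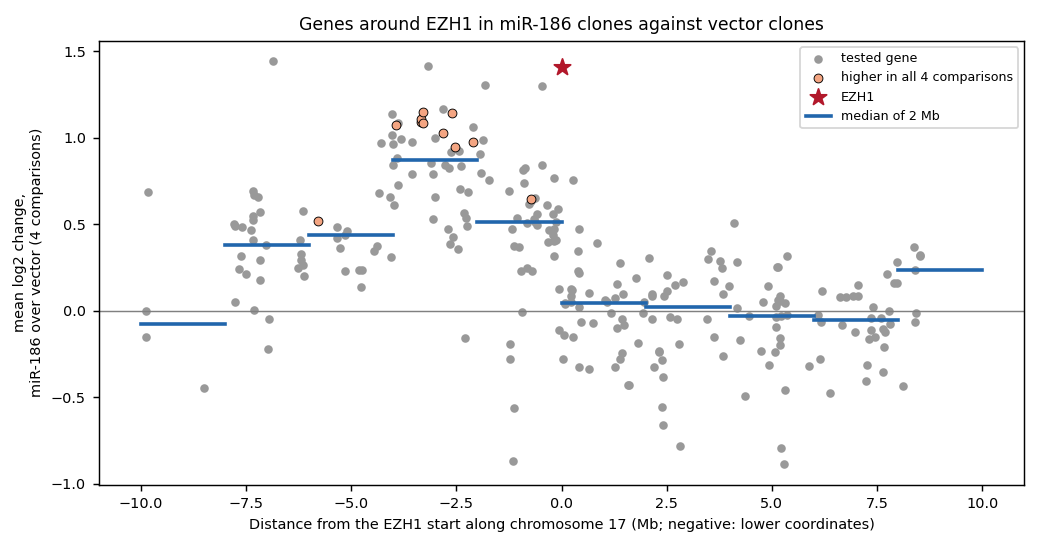
Mean log2 change between miR-186 and vector clones over the 4 matched comparisons (y axis) for tested genes within 10 Mb of the EZH1 start on chromosome 17 (x axis, negative toward lower coordinates). Blue lines are medians of 2 Mb steps, with 0.87 from 4 to 2 Mb on the lower side and 0.04 in the first 2 Mb on the higher side, and the star is EZH1 at 1.41.

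The genes most like EZH1 over the 24 libraries were also on chromosome 17. By Pearson correlation of log2(FPKM + 0.5) they were MED1, a Mediator subunit (r = 0.975), CASC3, a core protein of the exon junction complex (0.970), the kinase CDK12 (0.941), WIPF2 (0.934) and NT5C3B (0.933), a search added after the EZH1 values were seen. The libraries share their clones and constructs, so these describe the series only. Within the 12 miR-186 libraries the correlation with EZH1 was 0.86 for MED1 and 0.89 for CASC3, and within the 12 vector libraries 0.80 and 0.79. NT5C3B followed EZH1 within miR-186 libraries (0.86) and not within vector libraries (0.07).

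The library lowest in EZH1 among miR-186 clones was low in both genes. At week 29 and 100 nM, MED1 in miR-186 clones had 56.0, 47.5 and 32.8 FPKM and CASC3 had 77.6, 75.3 and 44.1 FPKM, with replicate 3 the lowest in both as in EZH1. MED1 ranged from 32.8 to 56.0 FPKM in miR-186 clones and from 16.99 to 24.3 FPKM in vector clones, and CASC3 from 44.1 to 82.7 FPKM in miR-186 clones and from 18.7 to 37.6 FPKM in vector clones. The construct ranges of each gene did not overlap.

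**Figure D4:**
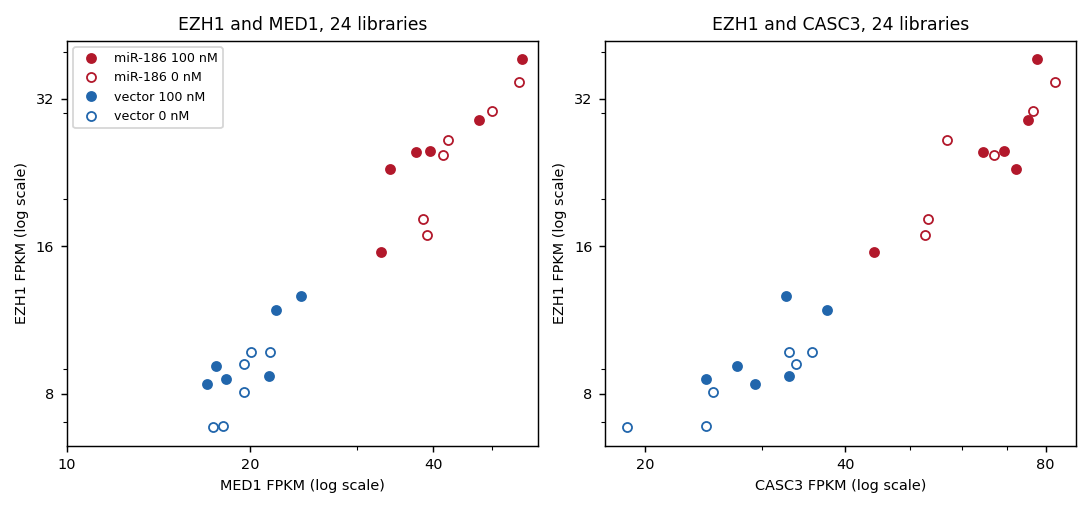
EZH1 FPKM (y axis, log scale) against MED1 and CASC3 FPKM (x axes, log scale) in 24 libraries, red for miR-186 and blue for vector clones, filled for 100 nM and open for 0 nM iAs. The constructs form 2 separate clouds, and the lowest miR-186 point of EZH1, 15.6 FPKM, is also the lowest of MED1 at 32.8 FPKM and of CASC3 at 44.1 FPKM.

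Without arsenic, EZH1 was higher in value at week 29, with no call. In miR-186 clones without arsenic it was higher at week 29 than at week 12 with no overlap, a log2 change of 0.61 ± 0.23 (limma adjusted p = 0.117). In vector clones the same change was 0.38 ± 0.23 (limma adjusted p = 0.652), also with no overlap. With 100 nM the groups overlapped, with changes of 0.09 ± 0.23 in miR-186 clones (limma adjusted p = 0.8), where replicate 3 of week 29 was below all 3 libraries of week 12, and 0.32 ± 0.23 in vector clones (limma adjusted p = 0.501). Arsenic changed EZH1 by -0.22 to 0.30 in the 4 iAs comparisons, 0 of them called.

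Of the 2 scaffold subunits, SUZ12 was higher in value in miR-186 clones at every setting. SUZ12 (ENSG00000178691, chromosome 17, 31937018 to 32001045, plus strand), which holds the catalytic core together, had, at 100 nM and week 12, 21.6, 22.0 and 19.0 FPKM in miR-186 clones, against 14.6, 16.01 and 10.2 FPKM in vector clones, without overlap. This log2 change, 0.62 ± 0.18, had an adjusted p of 0.0771 with limma, and it was called after correction for gene GC content (0.64, adjusted p = 0.0219). The changes were 0.30 at 0 nM and week 12, 0.51 at 0 nM and week 29 and 0.53 at 100 nM and week 29, and 0 were called. SUZ12 is also on chromosome 17, and 109 genes tested within 5 Mb of it had median changes of 0.32, 0.36, 0.35 and 0.30 at 0 nM week 12, 100 nM week 12, 0 nM week 29 and 100 nM week 29. Its pseudogene SUZ12P1, which can share reads with it, was at 3.89 to 9.84 FPKM in miR-186 clones and 2.90 to 5.69 FPKM in vector clones, so the SUZ12 level is uncertain to that extent.

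EED (ENSG00000074266, chromosome 11, 86244544 to 86278813, plus strand), the subunit that reads the H3K27me3 mark, was the 1 member called between weeks in the fit without a block. In miR-186 clones at 100 nM it had 23.97, 15.9 and 21.7 FPKM at week 29, against 15.1, 12.6 and 12.2 FPKM at week 12. The groups did not overlap, and the log2 change was 0.59 ± 0.18 (limma adjusted p = 0.0406). This comparison called 12.2% of all genes tested, and 7.11% of all genes tested were called higher, so 1 of 9 is near the background. After correction for gene GC content the EED change was 0.29 (adjusted p = 0.174). The call was also lost without miR-186 replicate 2 or 3 of week 12 (0.56, adjusted p = 0.174, and 0.54, adjusted p = 0.0848) or replicate 1 or 3 of week 29 (0.47, adjusted p = 0.172, and 0.54, adjusted p = 0.112). EED, with a GC content of 33.0% the lowest of the 9, moved against the GC slope of the libraries, the log2 change in level per 10 points of gene GC (r = -0.84 over 24 libraries, which share clones).

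JARID2, PHF19 and MTF2, the accessory subunits, did not pass limma's threshold in any comparison of 2 groups in the fit without a block. JARID2, a cofactor that helps recruit PRC2, ran from 2.81 to 7.99 FPKM. Its median over the 24 libraries, 5.19 FPKM, was the lowest of the 9, beside 5.50 FPKM for KDM6B, which reached lower single values. JARID2 was higher in value in miR-186 clones in 4 of 4 comparisons, by 0.25 to 0.46. At 100 nM and week 12 it had 6.34, 5.98 and 7.99 FPKM in miR-186 clones, against 5.56, 3.74 and 5.13 FPKM in vector clones, with no overlap and no call (0.46 ± 0.21, limma adjusted p = 0.305). With GC correction it was 0.50 ± 0.20 (adjusted p = 0.186), and with GC correction and the replicate number as a block, which did not pair these libraries, it was called (0.50 ± 0.14, adjusted p = 0.0425). Replicate 1 was the highest and replicate 2 the lowest JARID2 library in 4 of 4 vector groups. In miR-186 clones at 100 nM JARID2 averaged 4.98 FPKM at week 29 against 6.77 FPKM at week 12 (-0.40 ± 0.21, limma adjusted p = 0.188). With a block within construct, added after seeing the data, JARID2 was called in that comparison.

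PHF19, a Polycomb-like protein that reads H3K36 methylation, was lower in value in miR-186 clones in 3 of 4 comparisons. At 100 nM and week 29 it had 26.4, 21.9 and 48.8 FPKM in miR-186 clones, against 53.5, 55.6 and 35.8 FPKM in vector clones, and the groups overlapped, with replicate 3 the highest of the miR-186 and the lowest of the vector libraries. The log2 change there was -0.63 ± 0.30 (limma adjusted p = 0.347). The highest PHF19 value of the series, 65.4 FPKM, was in vector replicate 3 at 100 nM and week 12, the vector library with the highest GC slope. PHF19 followed the GC slope in vector libraries (r = 0.82, n = 12) and not in miR-186 libraries (r = -0.14, n = 12).

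MTF2, another Polycomb-like protein, which binds unmethylated CpG-rich DNA, was between 10.9 and 26.7 FPKM. In vector clones at week 12 it had 12.7, 16.3 and 11.8 FPKM with arsenic, against 18.5, 26.7 and 16.96 FPKM without. These groups did not overlap, and the change of -0.58 ± 0.21 was not called (limma adjusted p = 0.0908). In miR-186 clones at week 12 the change with arsenic was -0.47 ± 0.21 (limma adjusted p = 0.428).

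Of other PRC2 proteins, 7 were tested, RBBP4, RBBP7, AEBP2, PHF1, EPOP, LCOR and LCORL, and 0 of 7 were called in any of the 12 comparisons of 2 groups. Closest were AEBP2, a cofactor of the JARID2 form, with 37.8 FPKM in miR-186 clones against 23.5 FPKM in vector clones at 0 nM and week 29 (0.68 ± 0.19, limma adjusted p = 0.0527), and EPOP, with 3.76 FPKM in miR-186 clones against 1.64 FPKM in vector clones at 100 nM and week 12 (0.95 ± 0.27, adjusted p = 0.0676). EPOP lies 4.07 Mb from the EZH1 start on the side of lower coordinates, where neighbouring genes were also higher in miR-186 clones. EZHIP, an inhibitor of the complex, was below the level for testing.

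KDM6A (ENSG00000147050, chromosome X, 44873177 to 45112602, plus strand) was the most abundant demethylase of the pair, at 21.9 to 53.6 FPKM. In vector clones at week 29 it had 33.4, 31.9 and 36.4 FPKM with 100 nM iAs, against 21.9, 25.2 and 23.7 FPKM with 0 nM. At week 12 it had 32.1, 23.7 and 29.0 FPKM with 100 nM iAs, against 46.8, 42.4 and 53.6 FPKM with 0 nM. At each week the 2 groups did not overlap, and their order was opposite. The log2 change with iAs was 0.51 at week 29 and -0.75 at week 12, a difference of 1.26 ± 0.24 (week 29 minus week 12). These values brought KDM6A into the set and carry no test here.

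The largest step in that pattern was in the vector libraries without arsenic: week 29 was below week 12 by a log2 change of -0.99, against 0.27 between weeks with 100 nM. After correction for gene GC content the difference of iAs effects was 1.06.

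In miR-186 clones KDM6A was not called with arsenic or between weeks. At week 29 it had 42.8, 38.1 and 26.0 FPKM with 100 nM iAs, against 40.3, 40.5 and 45.4 FPKM with 0 nM. At week 12 it had 32.4, 32.3 and 40.5 FPKM with 100 nM, against 35.9, 44.4 and 46.5 FPKM with 0 nM. The groups overlapped at both weeks, with log2 changes of -0.26 ± 0.17 at week 29 (limma adjusted p = 0.999) and -0.27 ± 0.17 at week 12 (limma adjusted p = 0.578). Between weeks the changes were 0.00 at 0 nM and 0.00 at 100 nM, both with a standard error of 0.17 and an adjusted p of 1.

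Between constructs the KDM6A values are a description too, since the vector libraries are those that chose it. At 0 nM and week 29 the log2 change was 0.82, with no overlap of the values above, and 0.68 after correction for gene GC content. The other changes were -0.17 at 0 nM and week 12, 0.31 at 100 nM and week 12 and 0.04 at 100 nM and week 29. The difference in the iAs effect, miR-186 minus vector clones, was -0.78 at week 29 and 0.48 at week 12.

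KDM6B (ENSG00000132510, chromosome 17, 7839904 to 7854796, plus strand), the inducible demethylase, varied most. It ran from 1.21 to 19.6 FPKM, a 16.3-fold range, and its mean coefficient of variation within groups was 53.2%, against 12.3% for KDM6A. At week 12 without arsenic it had 8.88, 15.9 and 7.79 FPKM in miR-186 clones, against 4.49, 2.65 and 2.74 FPKM in vector clones. Those groups did not overlap, and the change of 1.55 ± 0.58 was not called (limma adjusted p = 0.144).

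The spread of KDM6B followed the replicate number. Replicate 2 was the highest in 4 of 4 miR-186 groups, with 8.73 and 9.46 FPKM at week 29 and 19.6 and 15.9 FPKM at week 12 for 100 and 0 nM. Replicate 1 was the highest in 4 of 4 vector groups, with 10.2 and 4.18 FPKM at week 29 and 13.7 and 4.49 FPKM at week 12 for 100 and 0 nM. The labels do not say whether a number follows 1 clone. With the replicate number as a block, KDM6B was called higher in miR-186 clones at week 12 and 0 nM (1.55 ± 0.41, adjusted p = 0.03), where the numbers are of different clones and did not pair the libraries.

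KDM6B was lower in value at week 29 in miR-186 clones. At 100 nM it had 3.73, 8.73 and 2.09 FPKM at week 29, against 9.76, 19.6 and 9.99 FPKM at week 12, without overlap. The log2 change was -1.48 ± 0.58 and was not called (limma adjusted p = 0.0918). In this comparison same-numbered libraries deviated together, and with the replicate block the change was called (-1.48 ± 0.41, adjusted p = 0.0184), as was EED. That block gives both constructs 1 effect per number, and with it more of all genes were called than without a block. With GC correction and the block the KDM6B change was -0.88 ± 0.38 (adjusted p = 0.134). At 0 nM the change between weeks was -1.05 ± 0.58 (limma adjusted p = 0.267).

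With arsenic, KDM6B in vector clones at week 12 had 13.7, 10.1 and 4.39 FPKM, against 4.49, 2.65 and 2.74 FPKM without, and replicate 3 with arsenic fell inside the other group. The change was 1.28 ± 0.58 (limma adjusted p = 0.152). At each replicate number the library with arsenic was higher. Same-numbered libraries correlated in their deviations across genes at 0.07, 0.71 and 0.44. Not all of these were over 0.1, so the number was not taken to pair them. With the replicate number as a block within each construct, added after seeing the data, the change was called (1.28 ± 0.27, adjusted p = 0.0276). With the planned block it was not (adjusted p = 0.0527), nor with GC correction (0.57 ± 0.52, adjusted p = 0.677). KDM6B has the highest GC content of the 9 genes, 62.4%, and its log2 level correlated with the library GC slope with r = 0.74 in miR-186 and 0.73 in vector libraries (n = 12 each). The slope was 0.19, 0.24 and 0.44 in these arsenic-treated libraries, against -0.14, -0.22 and -0.08 in the untreated ones. The part of the slope in the KDM6B values was not tested beyond the correction.

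**Figure D5:**
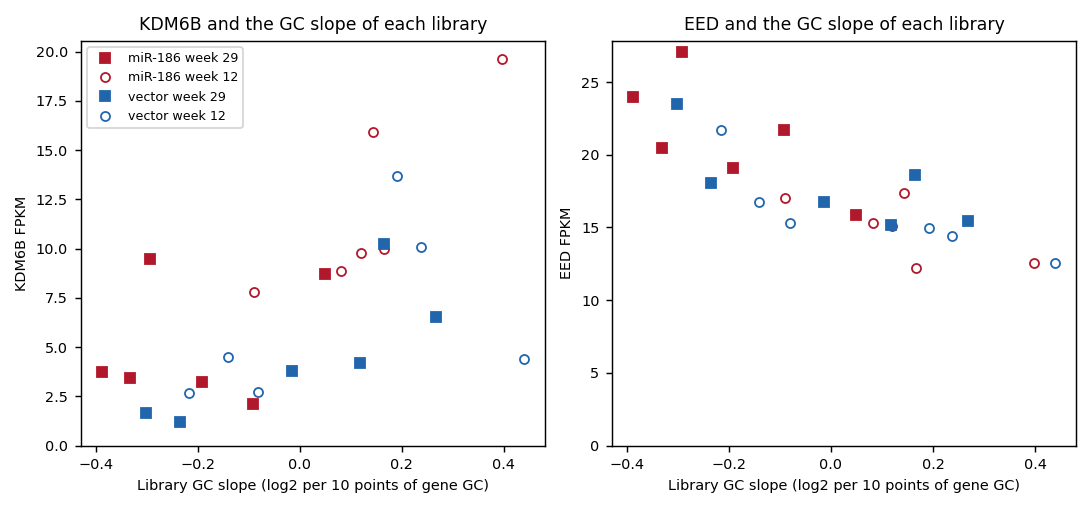
FPKM of KDM6B (left) and EED (right) against the GC slope of each of 24 libraries (x axis, log2 per 10 points of gene GC content), red for miR-186 and blue for vector clones, filled squares for week 29 and open circles for week 12. EED, the gene with the lowest GC content, falls as the slope rises (r = -0.84), and KDM6B, with the highest, rises with it (r = 0.63).

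Apart from KDM6A, which carries no test in vector clones, no member was called with arsenic in the fit without a block. In vector clones at week 12 limma called 0 of the 8 members tested (3 at an unadjusted p under 0.05), where 1.38% of all genes were called. The members with the lowest p there were MTF2, KDM6B and PHF19, a factor 1.57 higher with arsenic, with 36.4, 42.4 and 65.4 FPKM against 34.9, 25.8 and 28.6 FPKM without (adjusted p = 0.16). In vector clones at week 29 0 of 8 were called (0 at an unadjusted p under 0.05), in miR-186 clones at week 12 0 of 9 (1), and in miR-186 clones at week 29 0 of 9 (0), and in each of these 3 comparisons 0% of all genes were called. The differences in iAs effect between constructs called 0 of 8 members at week 12 (0 unadjusted) and 0 of 8 at week 29 (0 unadjusted), and between weeks in miR-186 clones 0 of 9 (0 unadjusted), again with 0% of all genes.

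Between weeks, vector clones had 0 of 8 members called without arsenic (1 at an unadjusted p under 0.05; 0.907% of all genes called) and 0 of 8 with arsenic (1 unadjusted; 0.183% of all genes). miR-186 clones had 0 of 9 without arsenic (2 unadjusted; 2.9% of all genes) beside the call of EED with arsenic.

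Lists of related genes, which like the members were drawn up with results of these libraries known, give the setting. Of 24 genes of PRC1, which compacts chromatin marked by PRC2, 2 were called higher in miR-186 clones at week 12 and 0 nM (median of the list 0.17, of all genes -0.03) and 0 in the other 3 comparisons between constructs (medians 0.05 to 0.21). Those were PCGF2, with 18.7 against 6.68 FPKM (1.43 ± 0.29, adjusted p = 0.009), which lies on the higher stretch beside EZH1, and the H3K27me3 reader CBX7, with 2.29 against 1.03 FPKM (0.87 ± 0.22, adjusted p = 0.0307, and 0.0914 with GC correction). Between weeks in miR-186 clones at 100 nM, 5 of the 24 were called lower and 0 higher. That comparison called 12.2% of all genes tested in either direction, and 7.11% higher. The list median was -0.38 (of all genes 0.02), and PCGF2, KDM2B and AUTS2 were among those called lower, by -0.92, -0.54 and -0.91. With GC correction these calls were lost (adjusted p = 0.13, 0.637 and 0.0952), and that of BCOR, also lower, held (adjusted p = 0.00763). BCOR, of a variant PRC1, was lower at week 29 than at week 12 in miR-186 clones at 100 nM (-0.88 ± 0.17, adjusted p = 0.00656), in miR-186 clones at 0 nM (-0.75 ± 0.17, adjusted p = 0.0215) and in vector clones at 100 nM (-0.84 ± 0.17, adjusted p = 0.0399).

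KDM6A sits in complexes with KMT2C and KMT2D, the H3K4 methyltransferases of enhancers. Of 9 genes of these complexes, 1 was called higher in miR-186 clones at week 12 and 0 nM, KMT2D with 15.9 against 8.14 FPKM (1.02 ± 0.25, limma adjusted p = 0.0298), and 1 at 100 nM and week 12, the scaffold WDR5 with 39.0 against 28.3 FPKM (0.46 ± 0.12, adjusted p = 0.0444). None of the 9 was called between constructs at week 29 (median of the list 0.28 at 0 nM and 0.12 at 100 nM, after 0.12 and 0.05 at week 12). Of 14 genes of SWI/SNF, the remodeller that opposes Polycomb, SMARCE1 was called higher in miR-186 clones in 4 of 4 comparisons, by 0.88 to 1.13, and it lies on the same stretch as EZH1. SMARCC1 was the other member of that list called between constructs, at 0 nM and week 29 (0.47 ± 0.12, adjusted p = 0.0413, and 0.0838 with GC correction), and the list medians were 0.23 and 0.03 at week 12 and 0.24 and 0.02 at week 29, for 0 and 100 nM. Of 19 lysine demethylases outside the KDM6 pair, PHF2 was called higher in miR-186 clones at week 12 and 0 nM (0.76 ± 0.14, adjusted p = 0.00566), JMJD1C at 0 nM and week 29 (0.61 ± 0.16, adjusted p = 0.0483, and 0.0912 with GC correction), and 0 at 100 nM.

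Genes that PRC2 is known to repress were mostly not called between constructs, where 0.864% to 3.44% of all genes tested were called. Of 39 HOX genes listed, 21 reached the level for testing, and 0 of the 21 were called between constructs, with medians of -0.17 to 0.00. Of 6 cell cycle inhibitors tested, 0 were called between constructs (medians -0.16 to 0.07). Of 11 terminal differentiation genes, 2 were called lower in miR-186 clones at week 29 and 0 nM, the envelope precursor SPRR1B with 1.31 against 14.4 FPKM (-2.97 ± 0.73, limma adjusted p = 0.0322) and the cross-linking enzyme TGM1 with 17.5 against 48.3 FPKM (-1.43 ± 0.35, adjusted p = 0.0314), with a list median of -0.94 against 0.02 over all genes. In the other 3 comparisons between constructs 0 of the 11 were called, with medians of 0.09, -0.35 and -0.83. Between weeks in miR-186 clones, CDKN1A, the p21 cell cycle inhibitor, had 29.3 FPKM at week 29 against 67.4 FPKM at week 12 with arsenic (-1.24 ± 0.24, adjusted p = 0.00737) and 26.5 against 84.8 FPKM without (-1.66 ± 0.24, adjusted p = 0.000757). In vector clones without arsenic CDKN1A was also called lower, with 38.4 FPKM at week 29 against 76.3 FPKM at week 12 (-1.004 ± 0.24, limma adjusted p = 0.0498). CDKN1B, the p27 inhibitor, was called higher at week 29 in miR-186 clones with arsenic (0.82 ± 0.21, limma adjusted p = 0.0199) and without (0.81 ± 0.21, adjusted p = 0.0384, and 0.0676 with GC correction).

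Over the 24 libraries, the highest correlations of EZH2 and KDM6A were below those of the genes named for EZH1. The gene most like EZH2 was BRIP1, a DNA repair helicase (r = 0.812), and the gene most like KDM6A was the scaffold protein gene NEDD9 (r = 0.803), each on another chromosome than the member. Within miR-186 and vector libraries the correlation was 0.85 and 0.59 for BRIP1 with EZH2, and 0.66 and 0.81 for NEDD9 with KDM6A. Among the members themselves, EZH1 correlated with EZH2 at 0.56 and with SUZ12 at 0.65 over 24 libraries, but within the 12 miR-186 libraries these were -0.12 and -0.26 and within the 12 vector libraries 0.15 and -0.34. The pooled values thus follow the step between constructs. EZH2 and EED moved together within both sets of libraries (r = 0.67 in miR-186 and 0.53 in vector clones).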

How the data were processed

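RNA of 24 libraries was made into stranded poly(A) libraries and sequenced paired-end in 1 pool, per the labels' protocols. Per the submitters' processing notes, STAR 2.6.0c, Cuffdiff 2.2.1 and hg38 (GRCh38) were used. The deposited FPKM values were taken as they stand: read counts, strand setting and any further scaling between libraries are not given in the sources used here. Genes averaging 0.5 FPKM or more were tested as log2(FPKM + 0.5) with limma 3.58.1 (R 4.3.3), trend and robust, all 8 groups in 1 fit, Benjamini-Hochberg over 14228 genes, threshold 0.05. Coordinates and GC content are from GENCODE, which holds 58261 of the 58381 IDs. The GC correction fits a spline of 5 degrees of freedom per library. The code was tested on simulated data.

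Members, lists and tests were chosen with earlier results of these data known. KDM6A is described without a test wherever vector libraries enter, and counts there are of the other 8 members. Named genes are the 9 members, up to 4 called genes per list with the smallest p, and the 5 most correlated genes; the genes like EZH1 and the sides of its region were chosen after values were seen. Same-numbered libraries deviated together (correlations across genes all over 0.1) in 4 of 12 comparisons: iAs in vector clones at week 29, constructs at 0 nM and week 29 (0.21, 0.23 and 0.20), weeks in vector clones at 0 nM and weeks in miR-186 clones at 100 nM (0.34, 0.41 and 0.39). In those within a construct the number was taken to pair the libraries, on the evidence of the values alone. Between constructs a shared number belongs to different clones, so it cannot pair the libraries there. The planned search for hsa-miR-186-5p sites in the members was not analysed here. Alternatives were other pseudocounts, filters, scaling, GC correction, blocks and leaving out each library. No 2 libraries were identical. Some genes of the lists are not reported here.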

Additional observations from a re-analysis of the deposited data

Results flagged for a closer look

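KDM6A in vector clones is listed here because every arsenic-treated library was below every untreated one at week 12 and above every untreated one at week 29. The difference of the iAs effect, week 29 minus week 12, was 1.26 on the log2 scale. It was not tested here, since the gene was brought into the set by it. With each of the 12 vector libraries left out in turn it was 1.14 to 1.35. That range describes the values that chose the gene and is no support for the result.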

How the results depend on the processing

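Among the alternatives other than leaving out a library, 310 of 345 values kept their direction and side of the threshold or moved little, and 0 called values reversed. Leaving out each library in turn kept 206 of 222 and reversed 0 called values. The count of members called moved as follows. With the replicate block it was 2 between constructs at 0 nM and week 12, where 1002 of the 14228 genes tested were called. It was 2 across weeks in miR-186 clones at 100 nM, where 2978 of the 14228 were called. With a block within construct, added after seeing the data, it was 1 for iAs in vector clones at week 12 (KDM6B), 1 across weeks in miR-186 clones at 0 nM (KDM6B) and 3 at 100 nM (EED, JARID2 and KDM6B). Without a block, 1.38%, 2.9% and 12.2% of all genes were called in these comparisons, in the same order. The shares with the block within construct are not given here, so these counts are not read as a result about the members. With GC correction the count of members was 2 between constructs at 100 nM and week 12 and 0 across weeks in miR-186 clones at 100 nM, and with GC correction and the replicate block 3 (EZH1, SUZ12 and JARID2) and 0. In fits of only the libraries compared it was 0 between constructs at 100 nM and week 29 and 0 across weeks in miR-186 clones at 100 nM, and without a filter on low values it was 0 in the last. Leaving out 1 library gave 0 to 1 between constructs at 100 nM and week 29, and 0 to 2 across weeks in miR-186 clones at 100 nM. The replicate block changed no other count of members. The number of all genes called moved by over 1.5 times in some: across weeks in miR-186 clones at 100 nM it was 2978 with the block and 729 with GC correction, against 1732, and between constructs with the block it was 1002 and 488 at week 12 and 744 and 279 at week 29 for 0 and 100 nM, against 490, 287, 407 and 123. For EZH1 neighbours the median log2 change was 0.35 within 10 Mb at 0 nM and week 12, 0.21 within 2 or 10 Mb at 100 nM and week 12, and 0.18 within 2 Mb at 0 nM and week 29. For SUZ12 neighbours within 2 Mb it was 0.28 and 0.44 at week 12 and 0.49 and 0.58 at week 29, and within 10 Mb 0.51 and 0.46 at week 12 and 0.48 and 0.40 at week 29, for 0 and 100 nM. The causes of these shifts were not tested.

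FPKM carry no counts, so counting error could not be given, and 3 libraries per group limit the precision. A construct is represented by 3 clones, so differences between constructs and between sets of clones cannot be told apart. A change that missed the threshold is not shown to be absent.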
